A study of Mus musculus with 6 samples.

Results

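The kinesin superfamily was described in activated mouse CD8+ T cells after 24 h with blebbistatin or with vehicle. Its members were the rows whose gene symbol is Kif with a number, or is Kifc1, Kifc2, Kifc3 or Kifap3, and there were 43 of them among 47729 genes. They were divided by known role into 14 mitotic kinesins, 17 transport kinesins and 12 ciliary, signalling and other kinesins. Of the 43 rows 3 are not motors. Kifap3 is the adaptor of the Kif3 motor and Kif1bp binds and restrains several kinesins, and both were kept with the transport kinesins. Kif16bos is annotated as an antisense noncoding RNA, lies on the opposite strand beside Kif16b without overlapping it, and was kept with the other kinesins.

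By its title, the study addressed the impact of a drug that acts on the cytoskeleton. Blebbistatin, which blocks the ATPase of myosin II, was given at 2 µM (3 libraries, blebbistatin 1 to 3). The vehicle group (3 libraries, vehicle 1 to 3) was set against it. All 6 libraries came from spleen CD8+ T cells that had been activated, and the labels give no genotype, age, mode of activation or composition of the vehicle. RNA came from the bulk of the cells, so fewer cells in division and less RNA per cell cannot be told apart. The labels do not say that replicates came from separate animals or cultures, so a p-value here reflects the scatter of these 6 samples alone, and that scatter may be technical.

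Kinesins are motor proteins that use ATP to move along microtubules or to take microtubule ends apart. In dividing cells the mitotic kinesins build the spindle, align the chromosomes and set up the midzone where the cell is cleft, while the contractile ring that completes cleavage is driven by myosin II. The transport kinesins carry vesicles, endosomes, lysosomes and mitochondria toward microtubule ends. In cytotoxic T cells microtubule motors carry lytic granules to the contact with a target cell. Mitotic kinesins are made mainly by cycling cells, and many of their genes hold a promoter element named the cell cycle genes homology region, whose core reads TTTGAA.

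The T cell label was borne out by 6 of 6 markers (Cd3d, Cd3e, Cd3g, Cd8a, Cd8b1, Trac), whose summed level was 2812 to 3060 TPM in blebbistatin libraries and 2772 to 2782 TPM in vehicle libraries. TPM is a level corrected for transcript length and scaled to the same total in each library. Depth overlapped between groups, with an implied 19482273 to 19849612 fragments in blebbistatin libraries and 18466219 to 19929460 in vehicle libraries. A transcript of 2 kb at 1 TPM then rested on 18.3 to 18.9 fragments with blebbistatin and 17.7 to 18.8 with vehicle. The tested kinesins near 1 TPM (Kif9, Kifc2, Kifc3 and Kif5c) are longer, with longest transcripts of 3184 to 6856 bases. They rested on more fragments than that, but their counting error is still large beside that of kinesins at higher levels. Of 13372 genes that averaged 1 TPM or more, 244 passed limma with Benjamini-Hochberg adjustment at 0.05, 187 higher and 57 lower with blebbistatin.

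The promoters are shown first, because the share of kinesins with the core differed between the lists. RefSeq promoter windows of GRCm38.p6, from 250 bases before the annotated start to 50 after it, were matched by symbol for 34 of the 43 members. No window was found for Kif20a, Kif5a, Kif5b, Kif13b, Kif1bp, Kifc2, Kifc3, Kif19a and Kif21b. The promoter counts therefore leave out Kif5b and Kif21b, the highest transport and the highest other kinesin. The core TTTGAA was searched on both strands, so that TTCAAA is a match too, and the CCAAT box was searched as CCAAT or ATTGG. The core lay in 10 of 13 mitotic kinesins with a window, in 1 of 11 transport kinesins and in 2 of 10 other kinesins. Over all genes with a window 20.2% held it, and over all tested genes 14.2%. The 1 transport kinesin with a core was Kif1a, and those in the other list were Kif26b and Kif27, all of them below 1 TPM in each library. Among members that reached the minimum level, the core lay in 10 of 12 mitotic, 0 of 9 transport and 0 of 3 other kinesins. The mitotic kinesins with no such letters in the window were Kif2a, Kif18a and Kif2b. The counts include Kif2c, Kif14, Kif4 and Kif1a, whose windows with a core lie wholly inside the deposited gene span. Whether those windows act as promoters in these cells was not tested. CCAAT boxes lay in 8 of 13 mitotic, 4 of 11 transport and 5 of 10 other kinesins, against 41.1% of all genes. For tested members the counts were 7 of 12, 4 of 9 and 1 of 3, against 43.3% of tested genes. No box overlapped a core in any kinesin. A match describes the letters of the window and is not evidence that a factor binds there.

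The 250 bases before the start are printed for the mitotic kinesin with the highest level (Kif11, chr19:37376132-37376381, plus strand), for the mitotic kinesin with the smallest p (Kif22, chr7:127042421-127042670, minus strand) and for the member with the smallest p of all (Kifap3, chr1:163779333-163779582, plus strand). Sequences run 5′ to 3′ on the strand of the gene and capitals mark the core.
Kif11: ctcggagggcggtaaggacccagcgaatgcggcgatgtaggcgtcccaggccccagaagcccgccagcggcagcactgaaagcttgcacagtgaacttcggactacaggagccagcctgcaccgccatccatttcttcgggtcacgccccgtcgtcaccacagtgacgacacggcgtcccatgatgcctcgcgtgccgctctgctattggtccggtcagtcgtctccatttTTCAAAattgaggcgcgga
Kif22: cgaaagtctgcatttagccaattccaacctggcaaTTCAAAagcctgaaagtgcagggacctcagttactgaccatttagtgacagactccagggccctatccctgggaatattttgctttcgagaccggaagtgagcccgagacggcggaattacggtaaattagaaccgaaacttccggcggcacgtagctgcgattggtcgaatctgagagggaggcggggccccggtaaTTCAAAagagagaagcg
Kifap3: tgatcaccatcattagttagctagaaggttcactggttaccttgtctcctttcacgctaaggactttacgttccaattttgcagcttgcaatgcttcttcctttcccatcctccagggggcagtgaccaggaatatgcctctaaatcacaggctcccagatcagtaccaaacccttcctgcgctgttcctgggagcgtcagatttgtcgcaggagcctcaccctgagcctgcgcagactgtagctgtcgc
In Kif11 the core begins 19 bases before the start and a CCAAT box 45 bases before it. In Kif22 a core and a box lie at about the same places, 17 and 54 bases before the start, and both occur once more farther out. Kifap3 has 1 CCAAT box and no core.

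In 6 further mitotic kinesins the core lay close to the start, and 30 bases around it are printed so that the flanks can be compared. The windows are chr9:122951050-122951079 (plus strand) for Kif15, chr9:61946780-61946809 (minus strand) for Kif23, chr11:102925104-102925133 (minus strand) for Kif18b, chr17:33890615-33890644 (minus strand) for Kifc1, chr19:34922353-34922382 (plus strand) for Kif20b and chrX:100626072-100626101 (plus strand) for Kif4.
Kif15: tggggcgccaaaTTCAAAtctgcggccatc
Kif23: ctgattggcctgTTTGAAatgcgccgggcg
Kif18b: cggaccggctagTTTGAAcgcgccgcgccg
Kifc1: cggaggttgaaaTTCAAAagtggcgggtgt
Kif20b: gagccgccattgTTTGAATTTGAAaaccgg
Kif4: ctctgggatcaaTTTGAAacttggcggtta
Kif20b holds the core 2 times in tandem, at bases 8 and 14 after the start. In Kif2c and Kif14 the core lies farther out, 103 and 228 bases before the start used for the window. Both starts are internal to the gene. The Kif2c window is chr4:117178723-117179022 (minus strand), and the gene begins at 117182639. The Kif14 window is chr1:136467598-136467897 (plus strand), and the gene begins at 136466343.

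**Figure D1:**
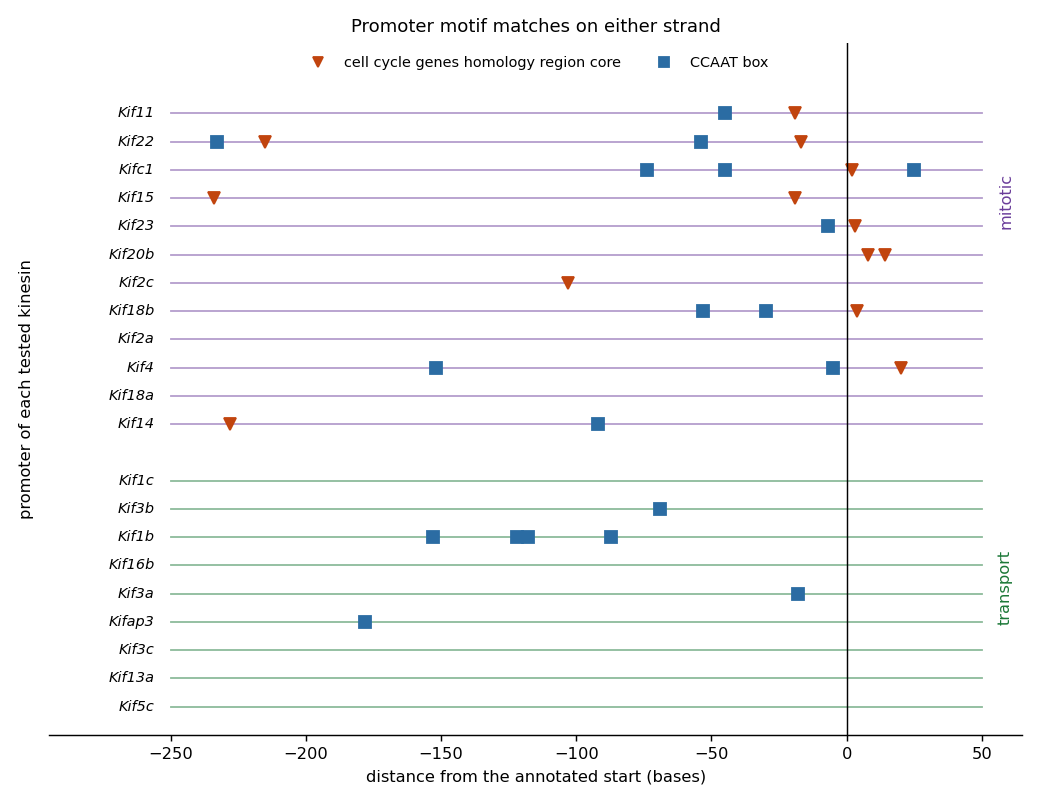
Distance in bases of each motif match from the annotated start, for tested mitotic kinesins (upper block) and tested transport kinesins (lower block) with a promoter window. Triangles mark the core of the cell cycle genes homology region, found in 10 of 12 mitotic and 0 of 9 transport kinesins. Squares mark CCAAT boxes. Kif1b and Kif2a have 2 annotated starts each, drawn together. The windows of Kif2c, Kif14 and Kif4 lie wholly inside the deposited gene span.

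Of the 43 rows 31 had a mean of at least 1 TPM and were tested, 13 mitotic, 14 transport and 4 other. All 13 expressed mitotic kinesins averaged at least 20 TPM, with a median of 60.4 TPM, while 3 of 17 transport kinesins and 1 of 12 others did so. The medians of the tested transport and other kinesins were 8.96 and 9.97 TPM. Summed over all 43 rows, kinesin transcripts made up 1200 ± 24.5 TPM with blebbistatin and 1190 ± 35.6 TPM with vehicle (mean ± SD; each group has n = 3 throughout). Mitotic kinesins held 76.0% ± 0.205 of that sum with blebbistatin and 77.4% ± 0.401 with vehicle, and transport kinesins 18.3% ± 0.219 with blebbistatin and 16.5% ± 0.380 with vehicle. Summed transport kinesins stood at 222, 215 and 220.1 TPM in blebbistatin 1, 2 and 3 and at 192, 196 and 202 TPM in vehicle 1, 2 and 3. This sum and both shares did not overlap between the groups, but as sums over chosen members they were not tested.

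With blebbistatin, 0 of the 31 tested kinesins rose or fell by limma with adjustment over all genes, where 1.40% of tested genes rose, 0.426% fell and 1.82% did either. At an unadjusted p under 0.05, 7 kinesins were counted, 6 higher and 1 lower, against 12.9% of tested genes higher and 9.99% lower. The 7 were 1 of 13 mitotic kinesins (lower), 6 of 14 transport kinesins (all higher) and 0 of 4 others. Of the 6, Kif5c reached the minimum level through its blebbistatin libraries alone, so it is no support for a higher level. Groups did not overlap in 8 kinesins with blebbistatin above, 7 of them transport kinesins and 1 mitotic, where 18.0% of tested genes did so. They did not overlap in 3 kinesins with vehicle above, 2 mitotic and 1 other, against 13.0% of tested genes. Among the 27 kinesins that averaged at least 1 TPM in each group, a restriction added after the data were seen, 5 of 11 transport kinesins were higher at an unadjusted p under 0.05 and 6 of 11 lay wholly above vehicle. The members left out by it were Kif5c, Kif9, Kifc2 and Kifc3. The share of all genes under the same restriction was not computed, so these restricted counts have no like background. These counts describe members that passed the minimum level and are not a test of the list. On the log2(TPM + 1) scale, the 95% interval of the change lay within 2-fold in either direction for all 31 kinesins and within 1.5-fold for 25 of them. That scale understates the change of low genes, and the bound does not hold in TPM, where the means of Kif5c alone had a ratio of 2.18.

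The median log2 fold change was 0.016 over the mitotic, 0.16 over the transport and -0.060 over the other kinesins, beside 0.027 over all tested genes. In single blebbistatin libraries against the vehicle mean, the transport median was 0.17, 0.19 and 0.23, while the mitotic median was 0.056, -0.041 and -0.011. The transport median stayed between 0.13 and 0.21 in all 18 alternative settings and left-out libraries. The mitotic median took the opposite sign with median-ratio scaling (-0.014), when values were corrected for length and GC content of the transcript (-0.071), without blebbistatin 1 (-0.038) and without vehicle 1 (-0.028). The lists were compared by their values only.

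**Figure D2:**
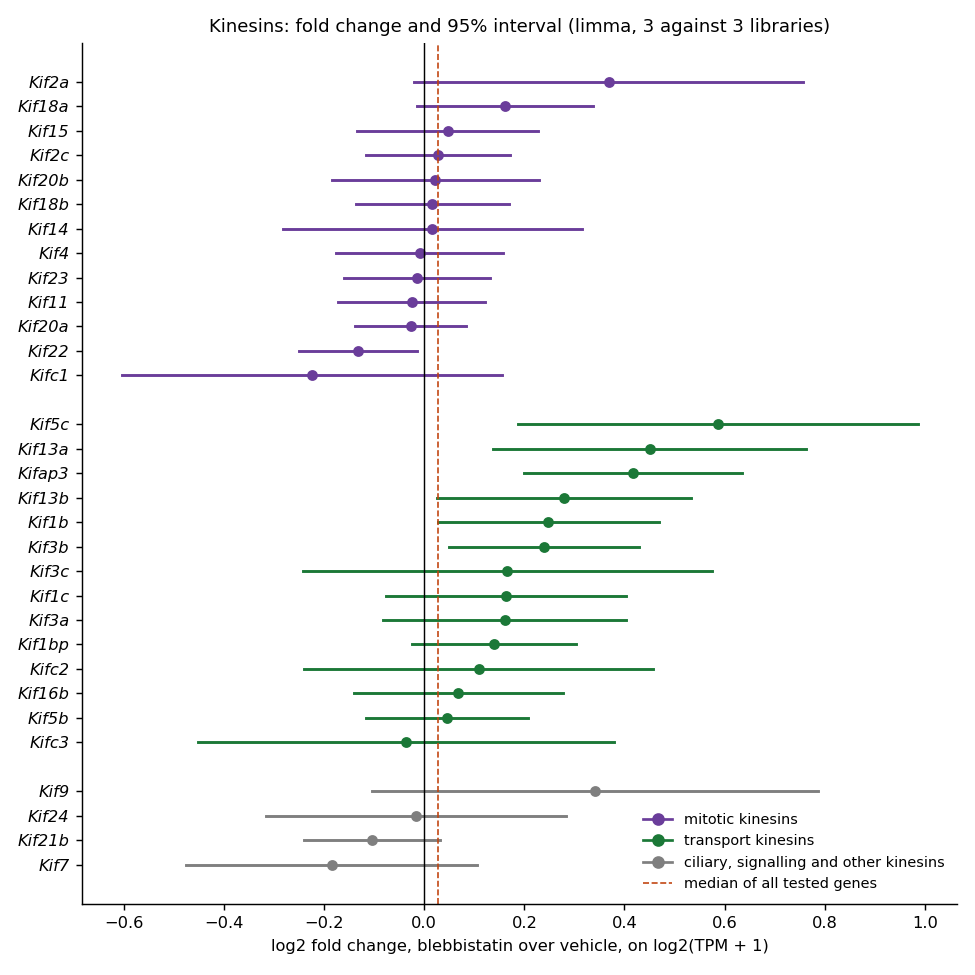
Log2 fold change of each tested kinesin, blebbistatin over vehicle on log2(TPM + 1), with its 95% interval from limma. Mitotic kinesins scatter around the dashed median of all tested genes (0.027). The median of the 14 transport kinesins is 0.16, and 0.17 over the 11 that averaged at least 1 TPM in each group.

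Among the mitotic kinesins Kif11 had the highest level, followed by Kif22, Kif20a, Kifc1 and Kif15. Kif11, the motor that slides spindle microtubules apart, had 153, 134 and 140.4 TPM in blebbistatin 1, 2 and 3, against 140.0, 147 and 148 TPM in vehicle 1, 2 and 3 (log2 fold change -0.025, SE 0.062, limma adjusted p = 0.83). The groups overlapped, and the highest and the lowest value both came from blebbistatin libraries. Kif15, which can stand in for Kif11 in keeping the spindle apart, had 91.1, 76.6 and 86.1 TPM with blebbistatin and 77.7, 82.5 and 85.0 TPM with vehicle (adjusted p = 0.74). Kif15 was likewise highest in blebbistatin 1 and lowest in blebbistatin 2. Both genes are poor in GC, at 42.2% and 42.7% of the longest transcript.

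Kifc1, a minus-end motor that focuses spindle poles, had 73.8, 115 and 86.1 TPM with blebbistatin and 106, 118 and 93.7 TPM with vehicle (log2 fold change -0.22, SE 0.16, adjusted p = 0.43). Its spread among blebbistatin libraries was the widest of the 31 kinesins, with an SD of 0.32 on the log2 scale, and blebbistatin 2 fell within the vehicle range. Kifc1 is uncertain, because 97.5% of its longest transcript is matched at 95% identity or more by Kifc5b, so reads may be split between the copies. Kifc1 and Kifc5b together had 99.3, 147 and 114 TPM with blebbistatin and 135, 151 and 126 TPM with vehicle. The log2 fold change of Kifc1 was -0.083 without blebbistatin 1, -0.15 without vehicle 2, -0.40 without blebbistatin 2 (limma adjusted p = 0.077) and -0.11 with values corrected for length and GC content. The sum overlapped between groups as Kifc1 alone did, and Kifc1 held 74.4% to 78.3% of it with blebbistatin and 74.4% to 79.0% with vehicle.

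Kif22, a chromokinesin that pushes chromosome arms toward the spindle equator, was the mitotic kinesin furthest from no change by its p. It had 113, 107 and 111 TPM with blebbistatin and 119.8, 119 and 125 TPM with vehicle (log2 fold change -0.13, SE 0.050, adjusted p = 0.18). Every blebbistatin value lay below every vehicle value, at means of 111 ± 3.06 TPM with blebbistatin and 121 ± 3.12 TPM with vehicle, and the gene did not pass. Kif22 lies on chromosome 7, 127027729 to 127042471 in GRCm38, on the minus strand. Kif4, a chromokinesin that also shortens midzone microtubules together with Prc1, had 47.6, 45.2 and 44.2 TPM with blebbistatin and 42.4, 47.3 and 48.3 TPM with vehicle. Its groups overlapped and its log2 fold change was -0.0093. Exons of Kif4 overlap Pdzd11 on the opposite strand over 15.1% of their length, and reads of the genes cannot be told apart without strand.

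The kinesins of the midzone and of cytokinesis did not pass, with log2 fold changes between -0.027 and 0.022. Kif23, the motor of the centralspindlin complex, had 63.9, 59.7 and 58.8 TPM with blebbistatin and 58.9, 61.2 and 64.3 TPM with vehicle. Kif20a, which carries the chromosomal passenger complex to the midzone, had 103, 99.6 and 103 TPM with blebbistatin and 104, 104 and 104 TPM with vehicle. Its vehicle values lay within a range of less than 1 TPM and just above every blebbistatin value, and its log2 fold change was -0.027 (95% interval -0.14 to 0.084). Exons of Kif20a overlap Cdc23 on the opposite strand over 29.3% of their length. Kif20b, which acts late in cytokinesis, had 68.6, 55.1 and 59.1 TPM with blebbistatin and 57.0, 60.3 and 62.0 TPM with vehicle, and blebbistatin 1 was again the highest. Kif14, which works with citron kinase at the midbody, had 22.9, 18.1 and 20.2 TPM with blebbistatin and 16.9, 22.0 and 21.7 TPM with vehicle, the lowest level of the expressed mitotic kinesins. Groups overlapped in Kif14, Kif20b and Kif23. Summed over Kif20a, Kif20b and Kif23, the kinesin-6 family stood at 224 ± 11.0 TPM with blebbistatin and 225 ± 5.33 TPM with vehicle.

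The kinesins that shorten or cap microtubule ends differed among themselves. Kif18a, which dampens chromosome movements at the spindle equator, had 26.1, 23.2 and 26.0 TPM with blebbistatin and 22.7, 22.9 and 21.5 TPM with vehicle (log2 fold change 0.16, SE 0.075, adjusted p = 0.25). It was the only mitotic kinesin with every blebbistatin value above every vehicle value, and it did not pass. After a correction for length and GC content its log2 fold change was -0.017, and its transcript has the lowest GC content of the tested kinesins (38.2%). Kif18b, which shortens astral microtubules with Kif2c, had 50.3, 53.0 and 57.4 TPM with blebbistatin and 53.0, 53.2 and 52.5 TPM with vehicle. Kif2c, a depolymerase of centromeres and spindle, had 56.3, 59.9 and 60.5 TPM with blebbistatin and 54.9, 58.7 and 59.8 TPM with vehicle. Neither Kif18b nor Kif2c separated the groups.

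Kif2a, a depolymerase at spindle poles that also works in cells that do not divide, had the largest ratio of highest to lowest library of any mitotic kinesin. It had 65.7, 48.6 and 51.4 TPM with blebbistatin and 33.9, 50.5 and 44.0 TPM with vehicle (log2 fold change 0.37, SE 0.17, adjusted p = 0.24). The groups overlapped at blebbistatin 2 and vehicle 2, and the highest library was 1.94 times the lowest. The log2 fold change was 0.21 without vehicle 1, 0.24 without blebbistatin 1 and 0.21 with values corrected for length and GC content. Exons of Kif2a overlap Dimt1 on the opposite strand over 19.2% of their length. Kif2b, the remaining Kif2 gene, was listed at 0 in each library.

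**Figure D3:**
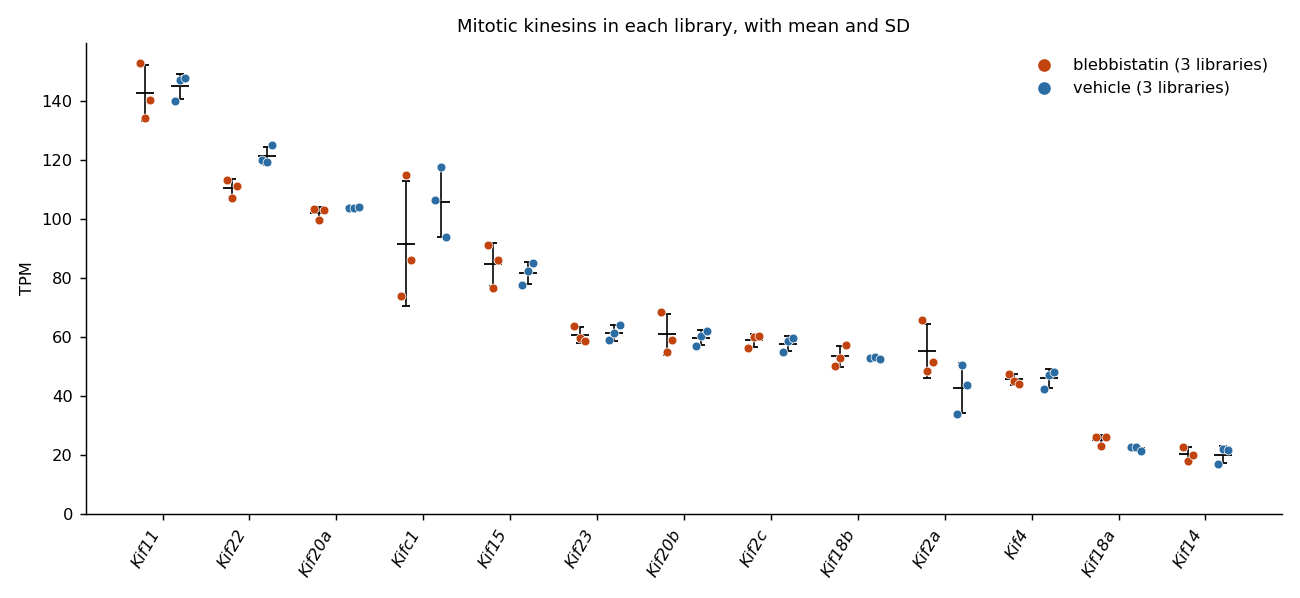
TPM of the 13 expressed mitotic kinesins in each library, blebbistatin left and vehicle right in each gene, with the mean and SD as a black bar and whiskers. Groups overlap in 10 of the 13; blebbistatin lies below vehicle throughout in Kif22 and Kif20a and above it in Kif18a.

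The transport kinesins are led by the kinesin-1 heavy chain Kif5b, which moves mitochondria, lysosomes and granules. Kif5b had 82.2, 73.7 and 77.4 TPM with blebbistatin and 70.6, 75.6 and 79.7 TPM with vehicle (log2 fold change 0.046, SE 0.069, adjusted p = 0.71), and the groups overlapped. Its sign was opposite after the correction for length and GC content (-0.100). Kif5c, a heavy chain best known from neurons, had 1.98, 1.41 and 1.45 TPM with blebbistatin and 0.497, 0.891 and 0.839 TPM with vehicle (log2 fold change 0.59, SE 0.17, adjusted p = 0.12). Every blebbistatin value of Kif5c lay above every vehicle value, but it did not pass. It was tested only because its blebbistatin libraries lifted its mean above 1 TPM, with means of 1.61 ± 0.321 TPM with blebbistatin and 0.742 ± 0.214 TPM with vehicle. With a pseudocount of 5 its log2 fold change was 0.20. It contributed 2.01% ± 0.286 of the summed Kif5 TPM with blebbistatin and 0.960% ± 0.239 with vehicle, and Kif5b 97.2% ± 0.375 with blebbistatin and 98.2% ± 0.341 with vehicle. Kif5a, another neuronal heavy chain, was below the minimum level, at 0.432 to 0.735 TPM with blebbistatin and 0.582 to 0.805 TPM with vehicle.

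The kinesin-2 motor is a dimer of Kif3a with Kif3b or Kif3c that binds its cargo through Kifap3. Kifap3 had 8.53, 8.14 and 7.74 TPM with blebbistatin and 5.48, 5.87 and 6.19 TPM with vehicle, with means of 8.14 ± 0.398 TPM with blebbistatin and 5.85 ± 0.356 TPM with vehicle (log2 fold change 0.42, SE 0.093; adjusted p = 0.076, limma). All blebbistatin values lay above all vehicle values, and this was the smallest adjusted p of any kinesin. It did not pass. Over all alternatives and left-out libraries its log2 fold change ran from 0.28 to 0.45 and its adjusted p from 0.058 to 0.23. Kifap3 lies on chromosome 1, 163779583 to 163917109 in GRCm38, and no exon of it overlaps another gene.

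Kif3b had 21.9, 20.7 and 21.5 TPM with blebbistatin and 19.7, 17.0 and 17.2 TPM with vehicle (log2 fold change 0.24, SE 0.081, adjusted p = 0.16), and its groups did not overlap. Kif3a had 10.1, 11.9 and 12.6 TPM with blebbistatin and 10.1, 10.9 and 9.59 TPM with vehicle (log2 fold change 0.16), with blebbistatin 1 inside the vehicle range. The log2 fold change of Kif3a was 0.24 without blebbistatin 1, 0.10 without blebbistatin 3 and 0.10 with quantile scaling. Kif3c stood at 4.99 ± 0.280 TPM with blebbistatin and 4.43 ± 1.24 TPM with vehicle, and its groups overlapped. Exons of Kif3c overlap genes on the opposite strand over 40.7% of their length, so its level is uncertain. The level of Kifap3 was 0.714 ± 0.117 of that of Kif3a with blebbistatin and 0.576 ± 0.0598 with vehicle, and the ratio overlapped between groups.

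The kinesin-3 motors carry synaptic vesicle precursors, endosomes and membrane receptors. Kif13a, which moves recycling endosomes, had 2.39, 2.23 and 2.61 TPM with blebbistatin and 1.26, 1.58 and 1.66 TPM with vehicle (log2 fold change 0.45, SE 0.13, adjusted p = 0.13). Kif13b, its close relative, had 7.72, 7.35 and 8.42 TPM with blebbistatin and 6.36, 5.57 and 6.94 TPM with vehicle (log2 fold change 0.28, SE 0.11, adjusted p = 0.19). Both separated the groups without passing, and with a pseudocount of 5 both had a log2 fold change of 0.19. Kif1b, a carrier of mitochondria, lysosomes and vesicle precursors, had 17.1, 14.6 and 15.4 TPM with blebbistatin and 12.2, 12.7 and 14.2 TPM with vehicle (log2 fold change 0.25, SE 0.094, adjusted p = 0.18), again with no overlap. With values corrected for length and GC content the log2 fold change of Kif1b was 0.14 (limma adjusted p = 0.29).

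Kif1c, which had the highest level of this family, had 27.1, 35.6 and 31.6 TPM with blebbistatin and 27.8, 27.1 and 28.5 TPM with vehicle, and the lowest value of each group was the same to 3 digits. Kif16b, a motor of early endosomes, had 12.2, 10.5 and 11.3 TPM with blebbistatin and 10.2, 10.9 and 11.1 TPM with vehicle, and the groups overlapped. Kif1bp, the binding protein that holds several kinesins off the microtubule, had 22.3, 21.2 and 22.3 TPM with blebbistatin and 19.1, 21.0 and 19.4 TPM with vehicle (log2 fold change 0.14, SE 0.070, adjusted p = 0.28). Its lowest blebbistatin value was just above its highest vehicle value. Exons of Kif1bp overlap 4933428P19Rik on the opposite strand over 10.1% of their length. The minus-end motor Kifc2 stood at 1.12 ± 0.110 TPM with blebbistatin and 0.970 ± 0.187 TPM with vehicle, and its relative Kifc3 at 0.984 ± 0.190 TPM with blebbistatin and 1.05 ± 0.307 TPM with vehicle, with overlapping groups. Exons of Kifc3 overlap genes on the opposite strand over 27.5% of their length. Kif17 reached at most 0.169 TPM with blebbistatin and 0.207 TPM with vehicle. Kif1a had 0.117, 0.0636 and 0.0132 TPM with blebbistatin and was listed at 0 in each vehicle library.

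Of the ciliary, signalling and other kinesins, Kif21b had the highest level. Kif21b limits microtubule growth and is known in human T cells from the turning of the centrosome toward the immune synapse. It had 46.9, 47.7 and 47.0 TPM with blebbistatin and 49.0, 50.2 and 53.3 TPM with vehicle (log2 fold change -0.10, SE 0.058, adjusted p = 0.32). Blebbistatin values lay within 1 TPM of each other and all below vehicle, and Kif21b did not pass. Kif24, a centriolar kinesin that restrains cilium assembly, had 17.2, 16.2 and 12.3 TPM with blebbistatin and 14.9, 16.2 and 14.6 TPM with vehicle, with overlap. Kif7, a regulator of Hedgehog signalling, stood at 4.36 ± 0.544 TPM with blebbistatin and 5.09 ± 0.561 TPM with vehicle, and Kif9, a kinesin of motile cilia, at 1.48 ± 0.467 TPM with blebbistatin and 0.944 ± 0.223 TPM with vehicle. Neither separated the groups, and 20.3% of the exon length of Kif7 overlaps genes on the opposite strand. The remaining 8 rows of this list reached at most 0.339 TPM with blebbistatin and 0.293 TPM with vehicle, and Kif6, Kif12 and Kif26a were listed at 0 in all 6.

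**Figure D4:**
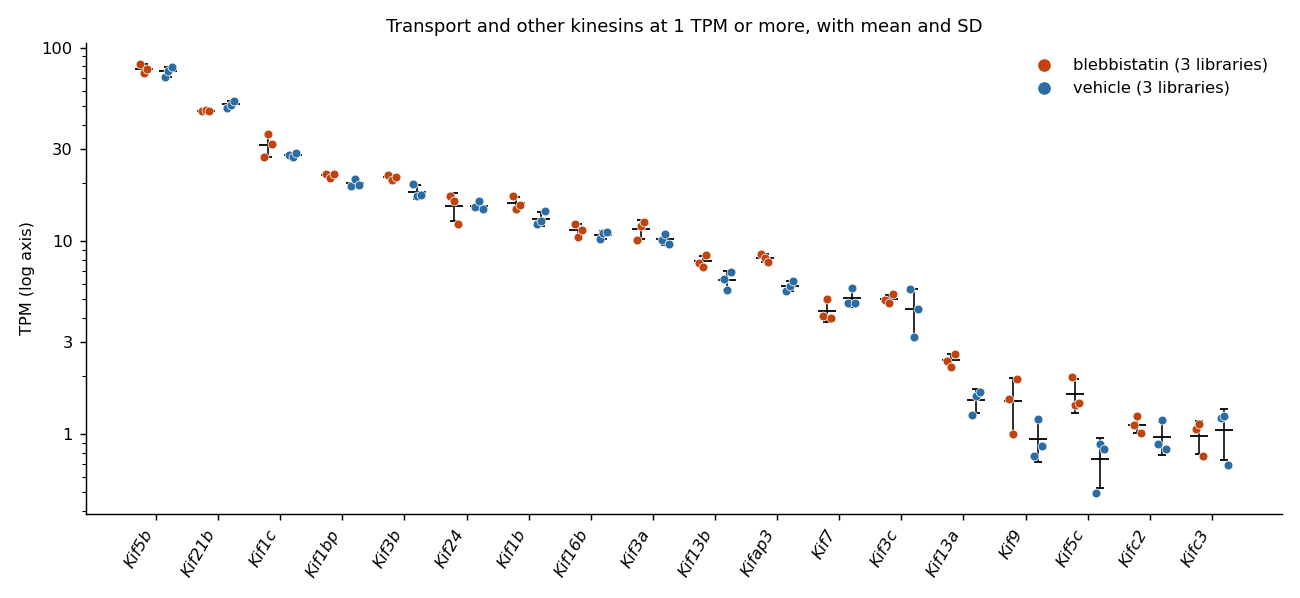
TPM of the 18 tested transport and other kinesins in each library on a log axis, blebbistatin left and vehicle right in each gene, with the mean and SD as a black bar and whiskers. Blebbistatin lies above vehicle throughout in 7 genes (Kif3b, Kif1b, Kif13b, Kifap3, Kif13a, Kif5c and Kif1bp) and below it in Kif21b.

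Library differences within the blebbistatin group ran along the GC content of kinesin transcripts. Across the 31 tested kinesins, the log2 difference of blebbistatin 1 from the mean of the other blebbistatin libraries had a Spearman correlation of -0.69 with GC content. For blebbistatin 2 it was 0.67 and for blebbistatin 3 0.0073. Over 13317 tested genes the same correlations were -0.56, 0.49 and 0.16. These are descriptions across genes of shared libraries, and genes are not independent replicates. Each library is set against the others of its group, so the correlations within a group depend on each other and are not separate results. Kinesins poor in GC, such as Kif2a, Kif20b, Kif11 and Kif15, were highest in blebbistatin 1, and Kifc1, at 57.0% GC, was lowest there. Among vehicle libraries the correlation with GC over the kinesins was 0.39, 0.046 and -0.39, but over all genes only 0.081, -0.052 and -0.033. For the difference between the group means it was -0.26 over the kinesins and -0.40 over all genes. The same differences were set beside transcript length. Over the kinesins its correlation was 0.32, -0.40 and 0.0004 for blebbistatin 1, 2 and 3, and over all genes 0.11, -0.088 and -0.049. For vehicle 1, 2 and 3 it was -0.17, -0.41 and 0.63 over the kinesins and -0.14, 0.033 and 0.12 over all genes. For the group means the correlation with length was 0.33 over the kinesins and 0.14 over all genes. With values corrected for length and GC content, 0 of 31 kinesins passed, and the smallest adjusted p was that of Kif11 (0.063, log2 fold change -0.15), followed by Kif22 (0.068, -0.17) and Kifap3 (0.073, 0.33).

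**Figure D5:**
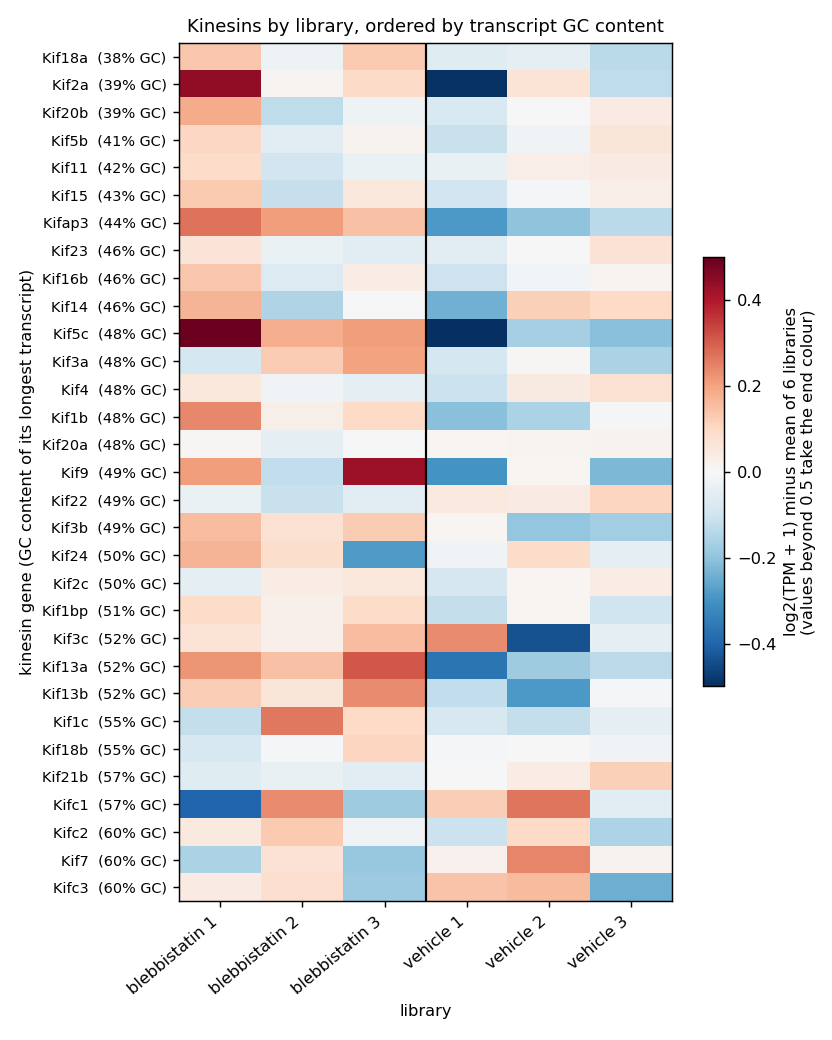
Log2(TPM + 1) of each tested kinesin in each library minus its mean over the 6 libraries, ordered by the GC content of the longest transcript from low (top) to high. Blebbistatin 1 is mostly red at the top and Kifc1 is blue there and red in blebbistatin 2. Kifap3, Kif13a and Kif5c are red in all 3 blebbistatin libraries. Other kinesins, among them Kif3b, Kif1b, Kif13b and Kif1bp, also lie above their mean in all 3.

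Markers of other cell types were read beside these results. Of 6 platelet markers (Pf4, Ppbp, Itga2b, Gp9, Gp1bb, Treml1) 4 of the 5 tested rose, and their summed level was 109 to 128 TPM in blebbistatin libraries and 49.3 to 58.5 TPM in vehicle libraries. The summed transport kinesins and the summed platelet markers were both higher in each blebbistatin library than in any vehicle library, and the part of platelets in the result was not tested. Of the B cell markers, Cd79b had 14.5, 12.9 and 16.5 TPM with blebbistatin and 9.69, 13.9 and 11.0 TPM with vehicle, and its groups overlapped. Cd79a had 1.11, 0.944 and 1.59 TPM with blebbistatin and 0.363, 0.419 and 0.425 TPM with vehicle and did not overlap, though its mean was below the minimum level and it was not tested. Ms4a1 and Pax5 overlapped between groups and reached at most 0.380 and 0.068 TPM with blebbistatin and 0.257 and 0.056 TPM with vehicle. The part of B cells in the result was not tested. Markers of myeloid cells (5 genes) summed to 0.975 to 2.34 TPM with blebbistatin and 0.755 to 1.08 TPM with vehicle. Markers of NK cells (3 genes) summed to 2.34 ± 0.321 TPM with blebbistatin and 1.77 ± 0.381 TPM with vehicle. Those of CD4 T cells, erythroid cells and stroma (3 genes each) overlapped between groups and reached at most 2.55, 2.98 and 0.367 TPM with blebbistatin and 2.19, 3.49 and 0.209 TPM with vehicle. Pdgfra and Col3a1 were at 0 in each library.

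The partners of the kinesins were read from lists that were drawn up with earlier results of these data known. Of 19 mitotic partners tested 1 rose and 1 fell, against 1.40% and 0.426% of tested genes, with a list median of -0.088. At an unadjusted p under 0.05, 2 were higher and 6 lower, against 12.9% and 9.99% of tested genes. Groups did not overlap in 2 with blebbistatin above and 8 with vehicle above, against 18.0% and 13.0% of tested genes. The summed level was 2193 to 2247 TPM with blebbistatin and 2305 to 2360 TPM with vehicle, with no overlap, and was not tested. Psrc1, which in human cells brings Kif2a to the spindle, rose to 139 ± 5.32 TPM with blebbistatin, against 94.7 ± 1.69 TPM with vehicle (log2 fold change 0.55, SE 0.052, limma adjusted p = 0.015). Cdca8, the borealin subunit of the complex that Kif20a carries, fell to 137 ± 6.34 TPM with blebbistatin, against 169 ± 2.94 TPM with vehicle (log2 fold change -0.31, SE 0.053, adjusted p = 0.045). Kif2a and Kif20a themselves did not pass.

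Among 17 tested kinesin-1 light chains and transport adaptors 0 rose and 1 fell, against 1.40% and 0.426% of tested genes. At an unadjusted p under 0.05, 1 was higher and 2 lower, against 12.9% and 9.99% of tested genes. Groups did not overlap in 2 with blebbistatin above and 4 with vehicle above, against 18.0% and 13.0% of tested genes. The gene that fell was Borcs5, a subunit of the complex that couples lysosomes to kinesins through Arl8b, at 10.5 ± 0.737 TPM with blebbistatin and 15.0 ± 0.782 TPM with vehicle (log2 fold change -0.47, adjusted p = 0.049). The light chains Klc1 to Klc4 together stood at 91.1 ± 14.5 TPM with blebbistatin and 104 ± 4.24 TPM with vehicle, with overlap, and 0 of the 4 passed. Relative to the summed Kif5 heavy chains this was 1.15 ± 0.244 with blebbistatin and 1.35 ± 0.0360 with vehicle. For 22 tested subunits and partners of dynein, the opposing motor, 1 rose and 0 fell, against 1.40% and 0.426% of tested genes. At an unadjusted p under 0.05, 4 were higher and 0 lower, against 12.9% and 9.99% of tested genes. Groups did not overlap in 6 with blebbistatin above and 1 with vehicle above, against 18.0% and 13.0% of tested genes. The dynein list gene that rose was Dynlt3, a dynein light chain, at 31.5 ± 1.36 TPM with blebbistatin and 21.2 ± 0.819 TPM with vehicle (log2 fold change 0.55, adjusted p = 0.020). Kinesins with other names did not pass either (0 of 3), and Cenpe, the motor of the kinetochore, had 85.0, 69.5 and 73.6 TPM with blebbistatin and 63.9, 73.8 and 73.2 TPM with vehicle. The calls of Psrc1, Cdca8, Borcs5 and Dynlt3 were all lost without blebbistatin 3 and without vehicle 1, 2 or 3, those of Cdca8 and Borcs5 also without blebbistatin 1.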

How the data were processed

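Bulk RNA from 3 blebbistatin and 3 vehicle libraries was sequenced on an Illumina NovaSeq instrument after a TruSeq RNA library preparation, per the labels' protocols. The submitters' processing notes name build mm10 and the tools StringTie 1.3.4, HISAT2 2.1.0 and DESeq2 1.22.2 without saying what each did, and any further setting is not given in the sources used here. The deposited TPM values, made by the authors, sum to 1000000 in each library. The deposited FPKM values, made by the authors, scale fragments by length and library size and served as an alternative. The deposited coverage, a mean read depth per gene with no normalization, served to infer depth, with 300 bases taken as 1 fragment. The files hold no counts, so depth is inferred and counting error was not modelled.

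Log2(TPM + 1) of genes averaging 1 TPM or more was compared by limma 3.58.1 in R 4.3.3 with a mean-variance trend, and p-values were adjusted by Benjamini-Hochberg over all 13372 genes. The fit was checked on simulated data with independent noise in each library. It called 59% of 100 genes changed by 1.5-fold and 81% of 100 changed by 2-fold, with 5 false calls. Changes were placed only in genes averaging at least 5 TPM, so the check does not cover kinesins near 1 TPM. Alternatives changed the pseudocount, minimum level, unit, scaling, variance model, replicate block, a loess correction (span 0.5) for transcript length and GC content, and the set of libraries. The members and lists were chosen with earlier results of these data known. Values in each library are given for members that passed, that did not overlap or that averaged at least 5 TPM, means or ranges for the other members, and values for up to 3 called genes per partner list or else the gene with the highest level. Kifc5b was named because it is a copy of Kifc1. Gene positions, exon overlaps, lengths and GC content came from GENCODE M21 (GRCm38), which held 98.9% of the gene identifiers and 99.6% of the tested genes. Copies were searched with BLAST 2.17.0 at 95% identity. The kit does not mark strand. One marker gene is not reported here. The list names Kif28 and Sgo2a matched no row. Figures were drawn with matplotlib 3.10.9.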

Additional observations from a re-analysis of the deposited data

How the results depend on the processing

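In each of 12 alternative settings and 6 fits without 1 library, 0 mitotic, 0 transport and 0 other kinesins passed limma with Benjamini-Hochberg adjustment, and the lowest adjusted p was 0.058 (Kifap3, no trend). The count of changed genes over the whole table was 49 with no minimum level, 160 with no trend, 463 with the length and GC correction and 3 to 1090 without a library (3 without blebbistatin 3, 1090 without blebbistatin 2). Without vehicle 1, 2 and 3 it was 13, 11 and 7, and without blebbistatin 1 it was 120. Deviations of same-numbered libraries from their group means correlated at 0.011, -0.037 and -0.034. Such values show no pairing by replicate number but cannot exclude a weak one. The replicate block gave 0 changed genes with and without the correction, and 0 in the adaptor, mitotic partner and dynein lists. Adaptor calls also numbered 0 with no minimum level, no trend and the correction, and 0 to 2 without a library. Mitotic partner calls numbered 1 with no minimum level, quantile scaling and no trend, and 0 to 4 without a library. Dynein calls numbered 0 to 4 without a library. The median of mitotic kinesins was -0.071 with the correction, with or without the block, and -0.038 to 0.026 without a library, and that of transport kinesins 0.15 to 0.21. Over members averaging at least 1 TPM in each group, chosen after seeing the data, the medians were 0.016 for mitotic, 0.17 for transport and -0.10 for other kinesins. Log2 fold changes of the opposite sign, in genes at most 0.17 from 0, were as follows. With quantile scaling they were 0.0049 (Kif11), 0.011 (Kif23), 0.0054 (Kif4) and -0.0022 (Kif14), and with median-ratio scaling -0.0081 (Kif20b), -0.0025 (Kif2c), -0.014 (Kif18b) and -0.013 (Kif14). With the correction, with or without the block, they were -0.069 (Kif15), -0.100 (Kif5b), -0.14 (Kif20b), -0.017 (Kif18a), -0.10 (Kif14), -0.030 (Kif16b) and 0.12 (Kifc3). Without a library Kif11 ran from -0.076 to 0.017, Kif15 from -0.0081 to 0.12, Kif23 from -0.051 to 0.017, Kif20b from -0.065 to 0.091, Kif2c from -0.0083 to 0.059 and Kif18b from -0.034 to 0.060. Kif4 ran from -0.066 to 0.026, Kif14 from -0.10 to 0.095, Kif24 from -0.11 to 0.12, Kif3c from -0.0095 to 0.33 and Kifc3 from -0.17 to 0.044. The causes of these shifts were not tested. Depth limits kinesins near 1 TPM, and counting error could not be modelled without counts.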
